A study of Mus musculus with 7 samples.

Results

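The genes that define the B lymphocyte were followed in mouse spleen, 9 in all: Ms4a1, Cd79a, Cd79b, Pax5, Blk, Cd22, Cd37, Bank1 and Ebf1. They were chosen by name, all 9 were found among the 55414 genes of the count table, and all 9 passed the filter on low counts. The libraries came from polyadenylated spleen RNA of 4 Fpr2KO samples, which lack the formyl peptide receptor gene Fpr2, and of 3 wild-type (WT) samples whose genotype is given as C57BL/6N. Age, sex, the strain background of the Fpr2KO mice and the cells in which the gene was deleted are not stated in the labels. They do not say either whether each replicate was a separate animal, so a p-value here reflects only how far these samples scatter, which may be technical. Libraries of 1 group differed by more than counting error, with a chi-square per degree of freedom between 10.8 and 100.2 over genes.

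B cells make up a large part of the spleen, where they fill the follicles and the marginal zone. Their antigen receptor is a membrane immunoglobulin held together with a heterodimer of Cd79a and Cd79b, the pair of chains that carries the signal into the cell. The kinase Blk and the adaptor Bank1 act just inside that receptor, Cd22 restrains it, Ms4a1 (CD20) and the tetraspanin Cd37 sit in the membrane beside it, and the transcription factors Ebf1 and Pax5 set up and maintain the B cell programme that includes Cd79a and Cd79b.

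Both receptor chains carry an immunoreceptor tyrosine-based activation motif, the stretch whose tyrosines are phosphorylated when antigen binds. The coding strand of that motif is shown because the pair of chains is compared directly further on; capitals mark the codons of the 2 tyrosines, and the sequences come from the transcripts of GENCODE M21 (GRCm38).
Cd79a, chromosome 7: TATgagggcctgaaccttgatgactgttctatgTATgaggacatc
Cd79b, chromosome 11: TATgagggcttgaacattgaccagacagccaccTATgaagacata
Over these 45 bases the chains had 31 bases in common, or 68.9%, and of the 15 encoded amino acids 10 were the same.

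RefSeq promoters (250 bases before to 50 after the start site, GRCm38.p6) were matched by symbol for 6 of the 9 genes. They were searched on both strands for CCCNNGGG, the core recognised by EBF factors, for GAGGAA, a form of the site of the ETS factor PU.1, and for the octamer ATTTGCAT bound by Oct factors. Of 32851 promoters of this length 13.7% held the first, 28.3% the second and 1.74% the third. The 4 promoters shown are those of Cd79a, whose ratio to Cd79b is described further on, of Cd37 and Cd22, which had the most negative fold changes of the 9 genes, and of Bank1, which held the same EBF word as Cd22. Capitals mark matches to the first 2 words, which did not overlap each other.
Cd79a promoter, chr7:24897247-24897546, plus strand: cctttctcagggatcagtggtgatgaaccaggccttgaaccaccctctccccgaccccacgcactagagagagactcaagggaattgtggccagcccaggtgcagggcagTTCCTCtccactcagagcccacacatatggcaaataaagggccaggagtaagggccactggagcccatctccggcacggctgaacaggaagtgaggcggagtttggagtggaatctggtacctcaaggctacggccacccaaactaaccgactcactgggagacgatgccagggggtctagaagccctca
Cd37 promoter, chr7:45238790-45239089, minus strand: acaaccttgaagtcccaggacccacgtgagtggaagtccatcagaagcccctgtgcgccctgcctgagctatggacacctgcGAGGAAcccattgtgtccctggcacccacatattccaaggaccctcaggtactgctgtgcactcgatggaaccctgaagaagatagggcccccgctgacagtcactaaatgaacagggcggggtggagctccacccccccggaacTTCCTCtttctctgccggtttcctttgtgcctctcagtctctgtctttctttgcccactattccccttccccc
Cd22 promoter, chr7:30878979-30879278, minus strand: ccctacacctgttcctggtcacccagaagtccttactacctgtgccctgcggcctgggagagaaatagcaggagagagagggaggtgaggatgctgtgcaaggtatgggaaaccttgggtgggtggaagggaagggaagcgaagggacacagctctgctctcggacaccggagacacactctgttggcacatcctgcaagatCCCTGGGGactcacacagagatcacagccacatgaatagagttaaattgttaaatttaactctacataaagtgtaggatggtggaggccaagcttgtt
Bank1 promoter, chr3:136326017-136326316, minus strand: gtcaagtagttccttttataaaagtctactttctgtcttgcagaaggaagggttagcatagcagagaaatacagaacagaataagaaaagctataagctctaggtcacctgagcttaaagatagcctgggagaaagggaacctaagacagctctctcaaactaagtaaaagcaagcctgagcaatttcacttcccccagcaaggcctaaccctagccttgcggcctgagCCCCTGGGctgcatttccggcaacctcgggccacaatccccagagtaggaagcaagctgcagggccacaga
GAGGAA (or its complement) occurred once in Cd79a and 2 times in Cd37, while CCCNNGGG occurred once each in Cd22 and Bank1. The Pax5 window held none of these 3 words, 1 of the 2 Ebf1 windows held GAGGAA once, and the octamer was in none of the 7 windows. A match is a description of the letters only, and so is the lack of one. Sites that depart from the exact word were not searched for, so a window without a match can still hold a binding site.

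The count totals ran from 16424799 to 18692809 per Fpr2KO library and from 14968605 to 16600334 per WT library. Fpr2 had 0 reads in each Fpr2KO library, where a floor of 3 reads corresponds to at most 0.178 CPM (the count scaled by library size, using TMM factors that take most genes as unchanged), against 537, 479 and 477 reads in the WT libraries, so every library fitted its label. Over the whole table edgeR's quasi-likelihood test called 6 of 16089 genes (0.0373%) at an adjusted p under 0.05, all lower in Fpr2KO. Leaving out WT replicate 1 gave 10 calls, and leaving out WT replicate 3 gave 15. The spleen marker Tlx1, a transcription factor gene, was present as the tissue label implies and averaged 30.9 ± 5.58 CPM in Fpr2KO and 23.6 ± 4.18 CPM in WT (SD, n = 4 and 3).

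None of the 9 genes passed the test between Fpr2KO and WT spleens, and every estimate was small. Their log2 fold changes lay between -0.14 and 0.12, with 5 above and 4 below 0 (51.4% of all genes were below 0), and each gene had an edgeR adjusted p of 0.9996. Against 0.0373% of all genes called by edgeR, 0 of 9 were called, and DESeq2, which called 0.354% of all genes, also called 0. At an unadjusted p under 0.05 there were 0 of 9, against 4.98% of all genes. The groups overlapped in all 9 genes, while they did not overlap in 5.91% of all genes. The median log2 fold change was 0.01 over the 9 genes and -0.01 over all tested genes. In a spleen sample, fewer B cells and less of a transcript per B cell cannot be told apart.

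**Figure D1:**
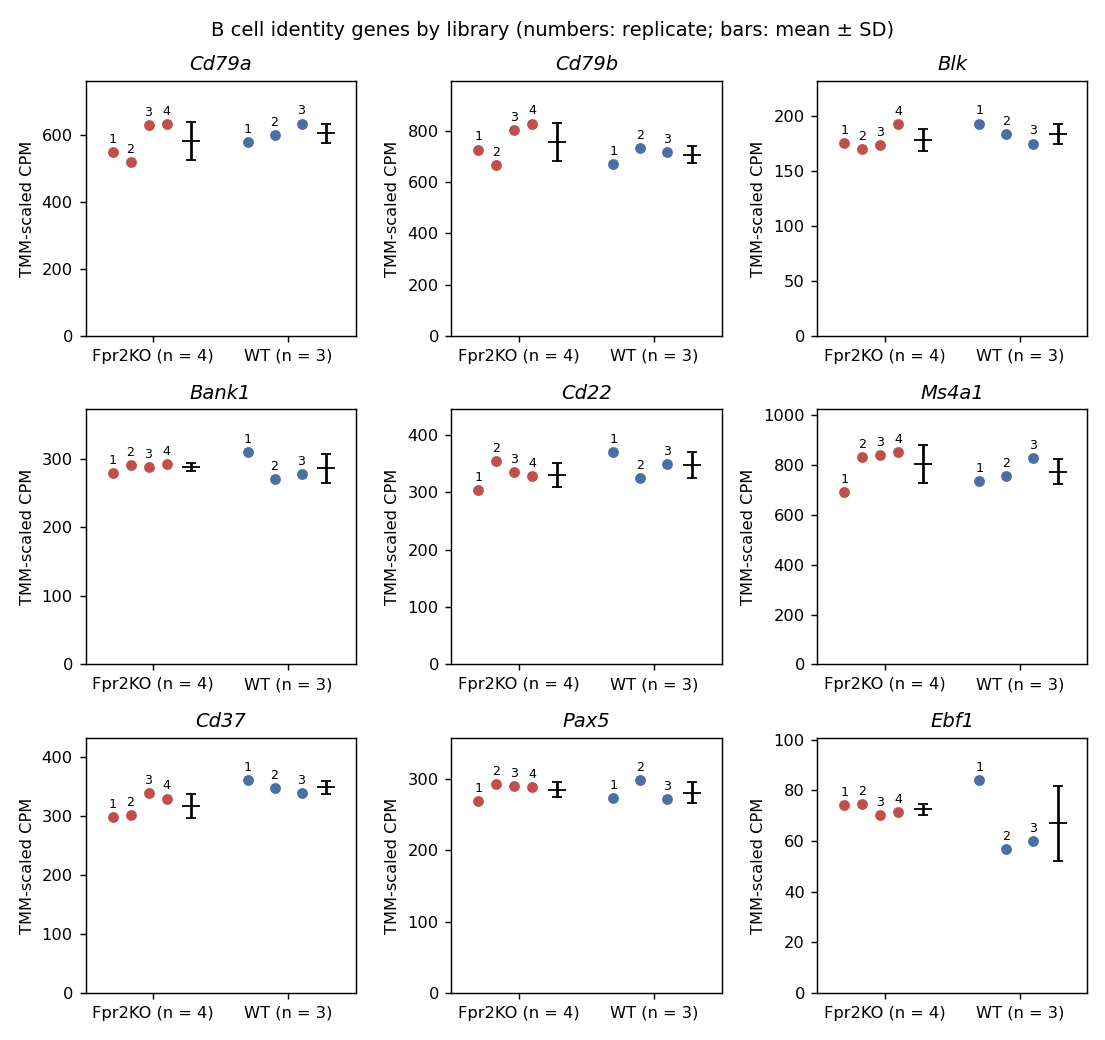
Each panel plots 1 gene, with TMM-scaled CPM on the y axis from 0, Fpr2KO libraries (n = 4) left of WT libraries (n = 3), the replicate number above each point, and the mean ± SD as a black bar. The groups overlap in every panel; the widest WT spread, relative to its mean, is that of Ebf1, from 56.9 to 83.9 CPM.

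The antigen receptor chains had the highest levels per length. Cd79a (ENSMUSG00000003379, chromosome 7, 24897381 to 24902197, plus strand, GRCm38) had 550, 521, 630 and 632 CPM in Fpr2KO replicates 1 to 4, against 581, 600 and 635 CPM in WT replicates 1 to 3. Fpr2KO replicates 1 and 2 lay below all WT libraries and replicates 3 and 4 lay within the WT range. The log2 fold change was -0.05 (SE 0.09, 95% interval -0.26 to 0.16). Cd79b (ENSMUSG00000040592, chromosome 11, 106311341 to 106314762, minus strand) had 727, 668, 802 and 829 CPM in Fpr2KO, against 672, 735 and 716 CPM in WT. Here replicates 3 and 4 of Fpr2KO lay above every WT library and replicate 2 below. The log2 fold change was 0.10 (SE 0.09, 95% interval -0.11 to 0.31).

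The ratio of the 2 chains was lower in Fpr2KO. Over the 7 libraries it varied less than either chain. Its SD was 0.09 on the log2 scale, against 0.11 for Cd79a and 0.12 for Cd79b. The SD was also 0.09 for the ratio of Cd79a to Cd37, and the smallest among pairs of the 9 genes was 0.07, for Cd22 and Bank1. Cd79a divided by Cd79b was 0.756, 0.779, 0.786 and 0.763 in Fpr2KO, against 0.864, 0.816 and 0.886 in WT. Every Fpr2KO library lay below every WT library. The ratio averaged 0.771 ± 0.0139 in Fpr2KO and 0.855 ± 0.0358 in WT (SD, n = 4 and 3), a log2 difference of -0.15. An exact two-sided permutation test over the 35 ways to assign the library labels gave p = 0.0286. This is the smallest p that 4 against 3 libraries allow. No other ratio was given a p-value, but overlap of the groups was examined for every pair of the 9 genes. The genes were chosen with earlier results of these data known. Among the 36 pairs that the 9 genes form, the groups did not overlap in 2, or 5.56%, against 4.57% of the 2096128 pairs among 2048 tested genes averaging 100 CPM or more. The share among these genes was thus near that background. With any 1 library left out the exact p was 0.0667 or 0.1, the smallest that 6 libraries allow, and without both Fpr2KO replicates 1 and 2 it was 0.2. The other such pair was Cd79b over Cd37, with a ratio of 2.22 to 2.52 in Fpr2KO and 1.87 to 2.12 in WT.

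**Figure D2:**
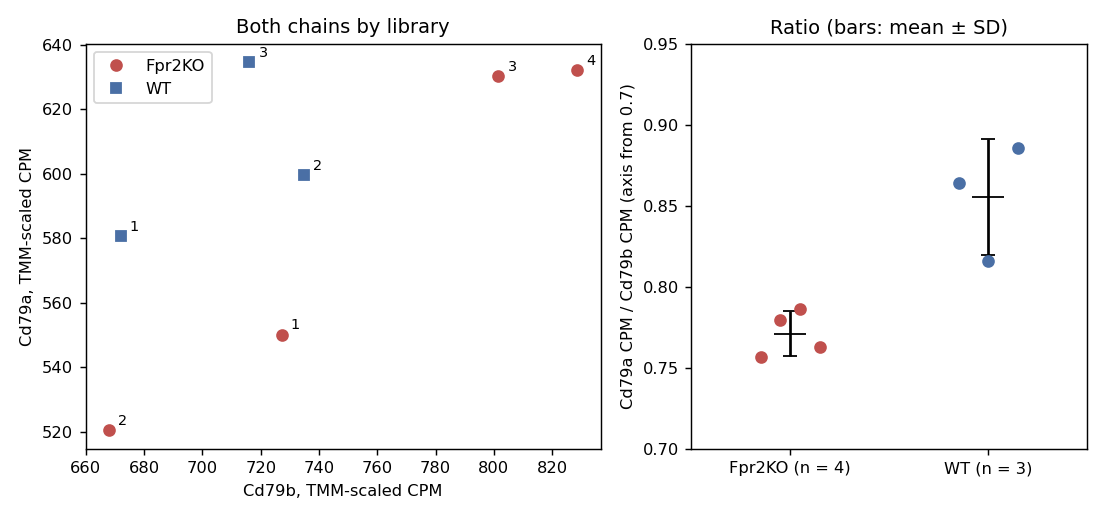
Left, Cd79a against Cd79b in TMM-scaled CPM, 1 point per library with its replicate number (neither axis starts at 0). Right, Cd79a CPM divided by Cd79b CPM in Fpr2KO (n = 4) and WT (n = 3) libraries with the mean ± SD, on an axis from 0.7; the Fpr2KO libraries sit between 0.756 and 0.786, below the WT libraries between 0.816 and 0.886.

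Both genes for signalling molecules next to the receptor had estimates close to 0. Blk (ENSMUSG00000014453, chromosome 14, 63372836 to 63417037, minus strand), a Src family kinase found mainly in B cells, had 176, 170, 174 and 193 CPM in Fpr2KO, against 194, 184 and 175 CPM in WT. Fpr2KO replicate 4 and WT replicate 1 were the highest and nearly equal. The estimate was -0.05 (log2, SE 0.08, 95% interval -0.23 to 0.13). Bank1 (ENSMUSG00000037922, chromosome 3, 136053363 to 136326066, minus strand), a scaffold that links the receptor to Lyn and to calcium release, had 279, 290, 288 and 292 CPM in Fpr2KO, against 310, 270 and 277 CPM in WT. The 4 Fpr2KO libraries lay close together and inside the WT range. For Bank1 the log2 fold change was 0.01 (SE 0.08, 95% interval -0.17 to 0.18).

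The inhibitory lectin Cd22 (ENSMUSG00000030577, chromosome 7, 30865402 to 30880342, minus strand), which binds sialic acid and recruits the phosphatase Ptpn6, had 304, 355, 335 and 328 CPM in Fpr2KO, against 371, 325 and 350 CPM in WT. Fpr2KO replicate 1 was the lowest and WT replicate 1 the highest of the 7. Cd22 had a log2 fold change of -0.08 (SE 0.09, 95% interval -0.27 to 0.11). Reads of the antisense gene Gm29439, which shares 479 exon bases with Cd22, came to 385 in all libraries against 39910 for Cd22. The strand setting of the counting is not stated, so reads of the 2 strands cannot be told apart; among opposite-strand genes that share exon bases with Pax5 or Cd37, 5730488B01Rik had 105 reads and Tead2 333 reads in all libraries.

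Of the membrane proteins, Ms4a1 (ENSMUSG00000024673, chromosome 19, 11249675 to 11266241, minus strand), which encodes the target of anti-CD20 antibodies, had 691, 833, 839 and 852 CPM in Fpr2KO, against 736, 754 and 829 CPM in WT. Fpr2KO replicate 1 was the lowest library and the other 3 Fpr2KO libraries were the highest. Ms4a1 had a log2 fold change of 0.06 (SE 0.10, 95% interval -0.16 to 0.27), and 0.13 without Fpr2KO replicate 1. Cd37 (ENSMUSG00000030798, chromosome 7, 45233632 to 45239115, minus strand), a tetraspanin of mature B cells, had 298, 301, 338 and 329 CPM in Fpr2KO, against 360, 347 and 338 CPM in WT. The groups met at Fpr2KO replicate 3 and WT replicate 3, with 338.2 and 337.9 CPM, and the other Fpr2KO libraries lay below all WT libraries. For Cd37 the log2 fold change of -0.14 (SE 0.08, 95% interval -0.31 to 0.04) had the smallest p of the 9 genes, an unadjusted 0.118, and was -0.06 without both Fpr2KO replicates 1 and 2.

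Both transcription factor genes had point estimates above 0. Pax5 (ENSMUSG00000014030, chromosome 4, 44524757 to 44710487, minus strand), the factor that commits cells to the B lineage, had 270, 293, 290 and 289 CPM in Fpr2KO, against 273, 298 and 272 CPM in WT. Fpr2KO replicate 1 and WT replicates 1 and 3 were nearly equal and lowest. Pax5 had a log2 fold change of 0.02 (SE 0.08, 95% interval -0.15 to 0.19). Ebf1 (ENSMUSG00000057098, chromosome 11, 44617317 to 45008091, plus strand), the factor that acts with Pax5 from the earliest B cell stages, had 74.1, 74.6, 70.0 and 71.5 CPM in Fpr2KO, against 83.9, 56.9 and 60.1 CPM in WT. WT replicate 1 stood above every Fpr2KO library and the other 2 WT libraries below. The log2 fold change was 0.12 (SE 0.13, 95% interval -0.17 to 0.40), the widest interval of the 9, and it was 0.31 without WT replicate 1 (edgeR adjusted p = 0.672) and 0.01 without WT replicate 2.

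**Figure D3:**
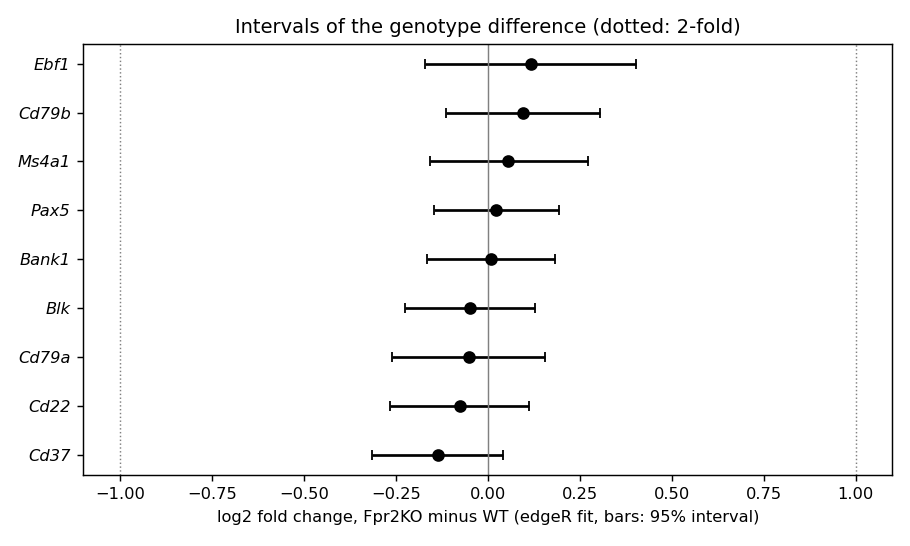
Log2 fold changes of Fpr2KO minus WT from the edgeR fit on the x axis, with 95% intervals as bars, for the 9 genes ordered from Ebf1 to Cd37; dotted lines mark a change of 2-fold in either direction. Every interval spans 0, and the outermost bounds are -0.31 for Cd37 and 0.40 for Ebf1.

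In linear terms, the intervals of the 9 genes reached from a fold of 0.805 (Cd37) to one of 1.32 (Ebf1), Fpr2KO over WT. Changes inside these intervals remain possible with 4 and 3 libraries. The bounds are not limits of detection, and a larger change in a gene could also be missed by the test.

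Compared as CPM per kilobase of exon, the levels of the 9 genes kept a fixed order. Means over all 7 libraries were 514 ± 42.4 for Cd79b, 407 ± 30.6 for Cd79a, 128 ± 10.1 for Ms4a1, 93.8 ± 6.49 for Cd37, 67.1 ± 4.37 for Cd22, 67.0 ± 3.48 for Blk, 38.3 ± 1.72 for Bank1, 32.0 ± 1.31 for Pax5 and 7.19 ± 0.939 for Ebf1 (SD, n = 7). Each gene lay above the next in all 7 libraries, and the ranges did not overlap, with the exception of Cd22 and Blk, where Cd22 was higher in 4 of 7 libraries. Cd79b stood at percentile 99.4 of all tested genes on this scale and Pax5 at percentile 89.7. The exon length is the union of all annotated exons, so genes with long or rarely used exons are set low on this scale.

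Of the 9 genes, 8 varied less over the libraries than the median gene, and Ebf1 varied more. The SD of log2 CPM over the 7 libraries ranged from 0.06 for Pax5 and Bank1 to 0.19 for Ebf1, with a median of 0.10. Over 10198 tested genes averaging 10 CPM or more the median was 0.15. Those genes were not matched to the 9 for level, and counting error is larger at low counts. Within Fpr2KO the SD of Ebf1 was 0.04 and within WT it was 0.30. Averaged over the 9 genes, each centred over the libraries, log2 CPM was -0.07, -0.02, 0.04 and 0.06 in Fpr2KO replicates 1 to 4 and 0.05, -0.03 and -0.02 in WT replicates 1 to 3. Fpr2KO replicate 1 was the lowest, with 8 of the 9 genes below their mean, and the WT libraries lay inside the range of the Fpr2KO libraries.

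Markers of several other cell types spread more widely over the same libraries. The 7 erythroid markers summed to between 10030 and 51330 CPM in Fpr2KO and between 14940 and 91850 CPM in WT, and the 5 plasma cell markers to between 1863 and 3549 CPM in Fpr2KO and between 2289 and 5210 CPM in WT. T cell markers, 9 genes, summed to between 559 and 835 CPM in Fpr2KO and between 625 and 810 CPM in WT. The 9 B cell genes summed to between 3370 and 3815 CPM in Fpr2KO and between 3569 and 3652 CPM in WT, and macrophage markers, 7 genes, to between 3273 and 3693 CPM in Fpr2KO and between 3401 and 3833 CPM in WT. The 8 neutrophil markers did not overlap as a sum, with 1265 to 2561 CPM in Fpr2KO and 3128 to 4346 CPM in WT. Nor did the sum of the 5 NK cell markers, with 151 to 169 CPM in Fpr2KO and 132 to 140 CPM in WT. Taken singly, 5 of these neutrophil markers and 2 of these NK cell markers separated Fpr2KO from WT, against 5.91% of all genes. EdgeR called 0 genes of either list, while DESeq2 called 5 neutrophil markers and 0 NK cell markers. How often the sum of an arbitrary list separates Fpr2KO from WT was not examined. Pancreatic acinar markers, 15 genes, reached 974 CPM in Fpr2KO replicate 1 and 555 CPM in replicate 2 and lay between 24.0 and 49.1 CPM in the other 5 libraries. Fpr2KO replicates 1 and 2 were also the lowest of the 7 for Cd79a and Cd37, but for no other gene of the 9. Replicate 2 was the highest Fpr2KO library for Cd22 (355 CPM), Pax5 (293 CPM) and Ebf1 (74.6 CPM). Whether the acinar RNA had a part in the Cd79a and Cd37 values was not tested. The log2 fold change of Cd79a was 0.07 without both libraries.

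**Figure D4:**
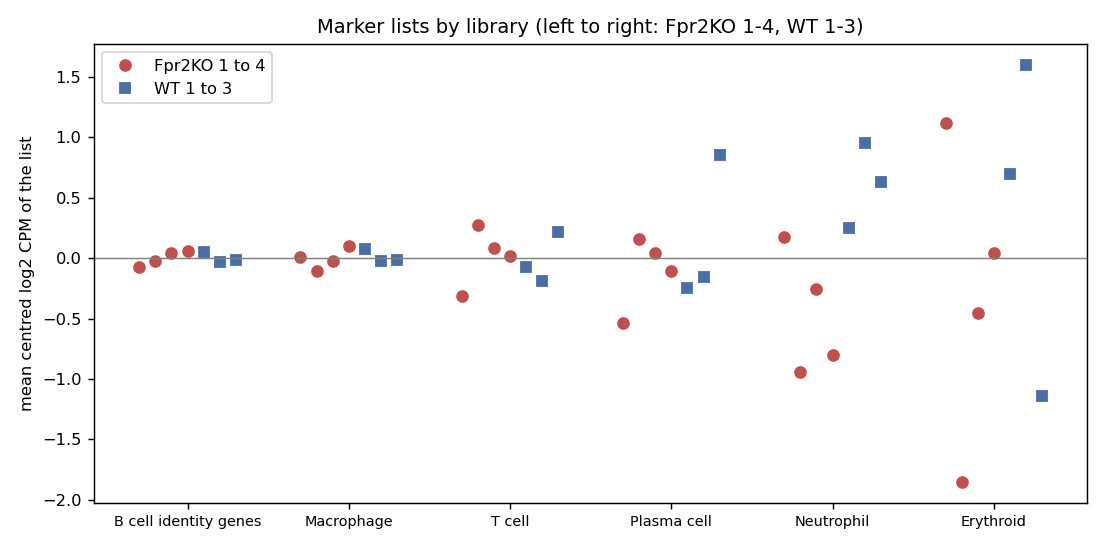
The mean of centred log2 CPM over the genes of 6 marker lists, 1 point per library, with Fpr2KO replicates 1 to 4 left of WT replicates 1 to 3 in each list. The B cell identity genes stay between -0.07 and 0.06, while erythroid markers run from -1.85 to 1.60.

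By the root mean square distance of centred log2 CPM over the 7 libraries, the nearest of 9581 other genes of at least 10 CPM (named genes other than pseudogenes and immunoglobulin segments, each with an SD no smaller than that of the mean of the 9) were Sart1 (distance 0.03), Ubtf, Pex13, Ezr, Cdc42 and Plekhm1. These are genes of splicing, ribosomal RNA transcription, peroxisome import and the cytoskeleton or endosome, and none is a B cell marker. Within the 9, Bank1 lay closest to the mean of the other 8, at 0.05, and Ebf1 farthest, at 0.19.

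Around the 9 genes, 8 lists held 120 other genes of B cell signalling, regulation and identity and relatives of the 9, of which 110 were tested. Of these, 76 had a log2 fold change below 0 and 34 above, with a median of -0.06, and edgeR called 0. An unadjusted p under 0.05 was found for 13 of the 110, or 11.8%, against 4.98% of all genes, and the groups did not overlap in 5, or 4.55%, against 5.91% of all genes. DESeq2 called 1, Ptpn22. Among the 13 genes with an unadjusted p under 0.05, 4 were relatives of the 9 from cells other than B cells. These were Siglec1, Siglecf, Cd33 and Ms4a2. Earlier results of these data were known when the lists were made, so the 11.8% alone cannot show a B lineage shift.

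Genes that pass the receptor signal on had mostly negative estimates, all of them small. Of 18 such genes 16 had a negative log2 fold change, against 51.4% of all genes, with a median of -0.07 and values between -0.19 and 0.08, and 0 had an unadjusted p under 0.05. The adaptor gene Blnk (-0.19), the kinase gene Syk (-0.19) and the lipid kinase gene Pik3cd (-0.12) had the smallest p, with an edgeR adjusted p of 0.9996 for each. Averaged over the 18 genes, centred log2 CPM was -0.16, 0.04, -0.03 and 0.02 in Fpr2KO and 0.14, -0.07 and 0.05 in WT. Fpr2KO replicate 1 was the lowest and WT replicate 1 the highest, and the other libraries of the groups overlapped. Blnk had 116, 127, 113 and 135 CPM in Fpr2KO, against 150, 122 and 148 CPM in WT, and the groups overlapped.

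Among 12 genes that restrain the receptor, 9 had a negative log2 fold change (median -0.14). Averaged over the 12 genes, centred log2 CPM was -0.110, -0.060, -0.028 and -0.086 in Fpr2KO and 0.256, 0.040 and -0.012 in WT. The groups did not overlap on this average, and gene by gene they did not overlap in 2 of the 12. How often the average of an arbitrary list separates the groups was not examined. Ptpn22, a tyrosine phosphatase of lymphoid and myeloid cells, had 110, 112, 101 and 105 CPM in Fpr2KO, against 212, 173 and 124 CPM in WT. Every Fpr2KO library lay below every WT library, and WT replicate 3 stood closest to them. At a log2 fold change of -0.66 (SE 0.15), edgeR gave an adjusted p of 0.517 and DESeq2 one of 0.0316, so it was called by DESeq2 alone. Fcrl5, an inhibitory receptor of marginal zone B cells, had 54.8, 63.4, 45.7 and 49.2 CPM in Fpr2KO, against 67.0, 73.0 and 64.1 CPM in WT, without overlap, although Fpr2KO replicate 2 came near WT replicate 3. Neither edgeR (-0.35, adjusted p = 0.850) nor DESeq2 called it. Ptpn6, the phosphatase that Cd22 recruits, was at -0.15 and the lipid phosphatase gene Inpp5d at -0.18.

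Transcription factors of the B lineage were spread to both sides, 9 of 16 positive, with a median of 0.01. Pou2af1, the octamer coactivator that B cells need for germinal centres, had 271, 317, 286 and 302 CPM in Fpr2KO, against 376, 334 and 437 CPM in WT. The groups did not overlap, but neither test called the estimate of -0.38 (log2, SE 0.10; edgeR adjusted p = 0.613, DESeq2 adjusted p = 0.276). Plasma cell markers summed to 1863, 3549, 2968 and 2158 CPM in Fpr2KO and to 2289, 2293 and 5210 CPM in WT. Jchain alone averaged 2328 CPM in Fpr2KO and 2880 CPM in WT, so these sums mostly reflect 1 gene. WT replicate 3 was the highest for Pou2af1 and for the sum of plasma cell markers. WT replicates 1 and 2 had less of these markers than Fpr2KO replicates 2 and 3 and more Pou2af1. Whether plasma cell RNA had a part in the Pou2af1 values was not tested. Bach2, which holds B cells back from plasma cell fate, had 45.2, 59.7, 66.1 and 57.5 CPM in Fpr2KO, against 48.9, 33.6 and 48.9 CPM in WT, with Fpr2KO replicate 1 inside the WT range and the other 3 above it. The estimate of 0.38 did not pass (edgeR adjusted p = 0.988), and Etv6 (-0.22) and Bcl11a (0.12) did not either. The list of 16 described targets of Pax5 and Ebf1, which includes Cd79a and Cd79b, had a median of -0.04, with 7 positive and 9 negative, and Lef1 at 0.29.

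Of 23 tested further B cell markers, 18 were negative, with a median of -0.06. Tnfrsf13c, the BAFF receptor on which follicular B cells depend, had 90.0, 115, 107 and 99.9 CPM in Fpr2KO, against 78.0, 85.5 and 90.2 CPM in WT. The groups touched at about 90 CPM, and the log2 fold change of 0.28 did not pass (edgeR adjusted p = 0.884). Btla, an inhibitory receptor of B and T cells, had 304, 345, 295 and 265 CPM in Fpr2KO, against 382, 400 and 322 CPM in WT (-0.28, edgeR adjusted p = 0.945). Ralgps2 was at 0.14 and the follicle homing receptor gene Cxcr5 at -0.17.

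Genes of early B cell stages covered a wide range of levels, and 5 of 11 fell under the count filter. Rag1, a subunit of the recombinase and 1 of those 5, averaged 0.275 CPM in Fpr2KO and 0.347 CPM in WT, while the highest of the list, the cytokine receptor gene Il7r, averaged 112 CPM in Fpr2KO and 152 CPM in WT. Of the 6 tested, Il7r (-0.44), Sox4 (0.43), Erg (-0.21) and Dntt (-0.52) had the smallest p, and none passed edgeR's test; Il7r and Sox4 are also expressed by T cells or other cells. The immunoglobulin constant genes were led by Ighm, the heavy chain of IgM, with 5943, 13990, 10820 and 7561 CPM in Fpr2KO, against 11090, 7946 and 25180 CPM in WT. Of the 6 constant genes 3 were positive and 3 negative, with a median of -0.03: the log2 fold change was -0.62 (SE 0.50) for Ighm, -0.65 (SE 0.44) for Igkc, 0.13 for Iglc3 and 0.20 for Iglc1. WT replicate 3 was the highest of the 7 for Ighm and for the plasma cell markers; whether plasma cell RNA had a part in these values was not tested. Ighd, the IgD heavy chain of naive B cells, had 558 ± 40.6 CPM in Fpr2KO and 557 ± 60.5 CPM in WT (SD, n = 4 and 3).

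Relatives of the 9 genes included the most negative estimates of the 8 lists. Of 30 tested relatives 22 were negative (median -0.09), and those with the smallest p were Siglec1 of macrophages (-0.35), Siglecf of eosinophils (-0.56), Cd33 of myeloid cells (-0.77) and Ms4a2, the IgE receptor beta chain of mast cells and basophils (-0.90). None passed edgeR's test (adjusted p between 0.817 and 0.988). Averaged over the 30 tested relatives, centred log2 CPM was between -0.089 and -0.008 in Fpr2KO and between 0.060 and 0.073 in WT. The groups did not overlap on this average, while gene by gene they did not overlap in 1 of the 30. Cd33 had 69.5, 59.6, 65.8 and 49.2 CPM in Fpr2KO, against 158, 91.7 and 62.8 CPM in WT, and Ms4a2 had 3.06, 1.72, 1.42 and 2.03 CPM in Fpr2KO, against 3.75, 5.96 and 1.85 CPM in WT. WT replicate 3 lay inside the Fpr2KO range for both, and WT replicate 1 for Cd33 and WT replicate 2 for Ms4a2 stood highest. The B cell member of the Siglec family beside Cd22, Siglecg, had 105 ± 7.04 CPM in Fpr2KO and 106 ± 18.6 CPM in WT (SD, n = 4 and 3). The tetraspanin genes Cd81 (-0.05) and Cd53 (-0.03) and the kinase gene Lyn (-0.06) had estimates near 0.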

How the data were processed

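The authors' deposited table holds raw read counts, 1 row per Ensembl gene. FastQC 0.10.1, HTSeq 0.10.0 and the mm10 (GRCm38) build are named in the submitters' processing notes; the aligner, the annotation release and the strand setting are not given in the sources used here. Symbols, positions and exon lengths came from GENCODE M21 (GRCm38), which matched 52133 of 55414 IDs, carrying 99.8% of the counts. Groups were taken from the sample titles. The B cell genes and the gene lists were chosen with earlier results of these data known.

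The whole table was fitted with edgeR 4.0.16 in R 4.3.3 (TMM, filterByExpr at its defaults, robust quasi-likelihood F test, Benjamini-Hochberg over 16089 genes), with DESeq2 1.42.0 as an alternative; log2 fold changes are Fpr2KO minus WT. Means of marker lists used log2 CPM with a prior count of 2. Genes outside the 9 were named as the 4 with the smallest p in each B lineage list or the 6 nearest in profile, of which 1 is not reported here; Tlx1, Rag1, Ighd, Siglecg, Cd81, Cd53, Lyn and the overlapping genes Gm29439, 5730488B01Rik and Tead2 were named after their values were seen. In the list of further B cell markers 1 of 24 entries is an older symbol of another and has no row of its own. The edgeR script was first tested on simulated data. Alternatives were other scalings, filters and tests, each library left out, and a replicate block.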

Additional observations from a re-analysis of the deposited data

Results flagged for a closer look

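Ms4a1 in Fpr2KO replicate 1, at 691 CPM, lay apart from the other 3 Fpr2KO libraries, which had 833, 839 and 852 CPM; the gap passed Dixon's criterion for 4 samples. Chance alone gives such a gap in about 1 in 20 groups, and 10 were examined. The same library held 974 CPM of pancreatic acinar markers and the lowest sum of T cell markers, 559 CPM; whether either had a part in the Ms4a1 value was not tested. The lowest WT library had 736 CPM.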

How the results depend on the processing

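None of the 9 genes was called by edgeR or DESeq2 under any of 15 alternatives. Of 135 fold changes refitted in this way, 131 kept their direction and 4 reversed: Cd79a was 0.067 without both Fpr2KO replicates 1 and 2, Pax5 was -0.001 without WT replicate 3 (range -0.001 to 0.068 with 1 library left out), and Bank1 fell to -0.030 and -0.010 when WT replicate 2 or 3 was left out (range -0.030 to 0.072). The median of the 9 stayed between -0.03 and 0.05, and turned below 0 without WT replicate 2 or 3. The count over all genes was 58 with DESeq2, 21 without a low count filter, 2 with the replicate block, and between 5 and 15 with 1 library left out. The log2 difference of the Cd79a to Cd79b ratio ranged from -0.18 to -0.12 with 1 library left out, where exact p was 0.1 or 0.0667, the smallest that 6 libraries allow, and it was -0.14 without both Fpr2KO replicates 1 and 2 (exact p = 0.2). Deviations of same-numbered libraries correlated at 0.078, -0.434 and -0.073, so none showed a clear positive match by number. The labels do not say what the numbers mean, and so few values cannot settle whether they mark a pairing. The replicate block, in which Fpr2KO replicate 4 has no partner and adds nothing to the difference, changed no call among the 9. RLE and upper-quartile scaling moved the median of all genes by at most 0.02. With 4 and 3 libraries the intervals of the 9 genes reach from -0.31 to 0.40. Changes inside them remain possible, and the bounds are not limits of detection.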
